A study of Homo sapiens with 9 samples.

Results

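Genes reported to carry promoter hypermethylation in colorectal cancer were followed in HT-29 cells treated with the demethylating agent 5-aza-deoxycytidine (5-Aza). The 44 genes were taken by symbol from a list of such genes, several of which serve in stool or blood tests for the disease. The list was chosen with earlier results of these data known, so shares set beside those of all genes are descriptive. The array held probe sets for 43 of them (115 probe sets), against 19775 genes in all. No probe set was paired with CDH13 in the annotation used, and that gene was not analysed here. HT-29 is an established line from a human colorectal adenocarcinoma, so all groups share 1 genetic background. Triplicate cultures received vehicle (DMSO, 0 µM 5-Aza), 5 µM 5-Aza or 10 µM 5-Aza for 5 days, with 1 Affymetrix expression array for the RNA of each culture (9 arrays, n = 3 for each dose). No methylation was measured.

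Cytosine methylation at CpG-rich promoters is copied at each DNA replication by the maintenance methyltransferase DNMT1, and dense methylation there goes with a silent gene. 5-Aza enters the DNA of dividing cells and traps this enzyme, so that methylation is lost over successive divisions, and genes whose silence depends on it can be transcribed again. Colorectal tumours, above all those with the CpG island methylator phenotype, methylate antagonists of the Wnt pathway, differentiation factors, growth regulators and matrix proteins.

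The promoter sequences of the genes with the clearest responses are shown with those of Wnt antagonists that stayed low, because CpG sites are where the drug acts. The windows run from 250 bases before to 50 bases after the RefSeq transcription start, on build GRCh38.p14, 5′ to 3′ on the strand of the gene, with each CG in capitals. They lie at chr4:41256678-41256977 (plus strand) for UCHL1, chr22:32801455-32801754 (plus) for TIMP3, chr7:97731836-97732135 (plus) for TAC1, chr3:149086484-149086783 (minus) for HLTF, chr2:95025458-95025757 (plus) for MAL, chr4:153789034-153789333 (minus) for SFRP2 and chr12:65121256-65121555 (minus) for WIF1.
UCHL1: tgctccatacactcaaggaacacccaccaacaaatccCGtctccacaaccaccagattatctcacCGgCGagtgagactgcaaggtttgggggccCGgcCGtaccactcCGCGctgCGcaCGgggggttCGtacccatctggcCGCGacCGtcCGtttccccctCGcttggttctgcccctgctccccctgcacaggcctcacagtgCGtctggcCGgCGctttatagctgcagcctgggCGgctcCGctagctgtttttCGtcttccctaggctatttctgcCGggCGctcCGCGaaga
TIMP3: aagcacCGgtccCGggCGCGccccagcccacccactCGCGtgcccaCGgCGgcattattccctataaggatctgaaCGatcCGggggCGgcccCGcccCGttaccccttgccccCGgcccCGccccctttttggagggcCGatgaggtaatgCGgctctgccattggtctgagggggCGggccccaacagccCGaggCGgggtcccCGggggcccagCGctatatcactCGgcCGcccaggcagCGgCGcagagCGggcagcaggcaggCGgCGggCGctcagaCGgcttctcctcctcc
TAC1: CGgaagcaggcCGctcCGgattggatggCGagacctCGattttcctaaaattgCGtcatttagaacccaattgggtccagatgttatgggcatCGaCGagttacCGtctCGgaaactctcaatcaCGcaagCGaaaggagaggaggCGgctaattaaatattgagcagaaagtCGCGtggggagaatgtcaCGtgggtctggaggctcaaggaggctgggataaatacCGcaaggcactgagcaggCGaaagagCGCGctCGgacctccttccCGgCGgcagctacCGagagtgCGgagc
HLTF: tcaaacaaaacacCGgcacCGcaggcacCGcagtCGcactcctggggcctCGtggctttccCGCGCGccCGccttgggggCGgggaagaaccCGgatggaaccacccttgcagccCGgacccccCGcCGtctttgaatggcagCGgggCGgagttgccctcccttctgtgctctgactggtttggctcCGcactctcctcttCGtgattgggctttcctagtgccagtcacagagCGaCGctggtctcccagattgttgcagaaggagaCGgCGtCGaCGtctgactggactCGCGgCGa
MAL: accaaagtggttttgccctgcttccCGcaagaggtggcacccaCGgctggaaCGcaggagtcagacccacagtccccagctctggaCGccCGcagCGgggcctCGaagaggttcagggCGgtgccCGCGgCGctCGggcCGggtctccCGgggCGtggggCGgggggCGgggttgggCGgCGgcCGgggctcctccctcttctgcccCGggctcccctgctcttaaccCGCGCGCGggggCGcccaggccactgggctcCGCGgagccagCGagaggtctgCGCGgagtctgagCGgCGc
SFRP2: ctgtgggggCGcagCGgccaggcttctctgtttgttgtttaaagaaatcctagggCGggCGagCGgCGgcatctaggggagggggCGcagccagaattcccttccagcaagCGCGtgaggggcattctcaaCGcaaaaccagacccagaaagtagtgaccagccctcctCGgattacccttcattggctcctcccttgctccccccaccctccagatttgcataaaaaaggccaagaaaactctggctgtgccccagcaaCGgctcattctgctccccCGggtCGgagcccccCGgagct
WIF1: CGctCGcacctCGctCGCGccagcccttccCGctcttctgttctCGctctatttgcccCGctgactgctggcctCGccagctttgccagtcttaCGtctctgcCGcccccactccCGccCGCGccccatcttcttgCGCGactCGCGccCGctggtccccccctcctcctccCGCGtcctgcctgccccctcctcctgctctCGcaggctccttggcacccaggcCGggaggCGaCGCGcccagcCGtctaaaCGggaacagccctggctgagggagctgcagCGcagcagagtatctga

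CG reads the same on both strands, and 96% of the 35116 RefSeq promoter windows of this length hold at least 1. The window of UCHL1 held 25 CpG sites, TIMP3 31, TAC1 25, HLTF 27, MAL 33, SFRP2 15 and WIF1 29. A window was found for 30 of the 44 genes, and where a gene had several starts the window with the most CpG sites was taken. The median was 30.5 sites (range 7 to 49) in the listed genes and 25 sites in the 15384 genes on the array with a window, and 86.7% of listed genes against 62.5% of those genes had 20 or more. Within the list, the median was 29 sites in 6 genes that were higher or came on at 5 µM (described below as raised genes), 36 in 7 genes expressed at 0 µM and not raised, and 26 in 12 genes that were never above the floor. The ranges of these groups overlapped, and no test was made between them.

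**Figure D1:**
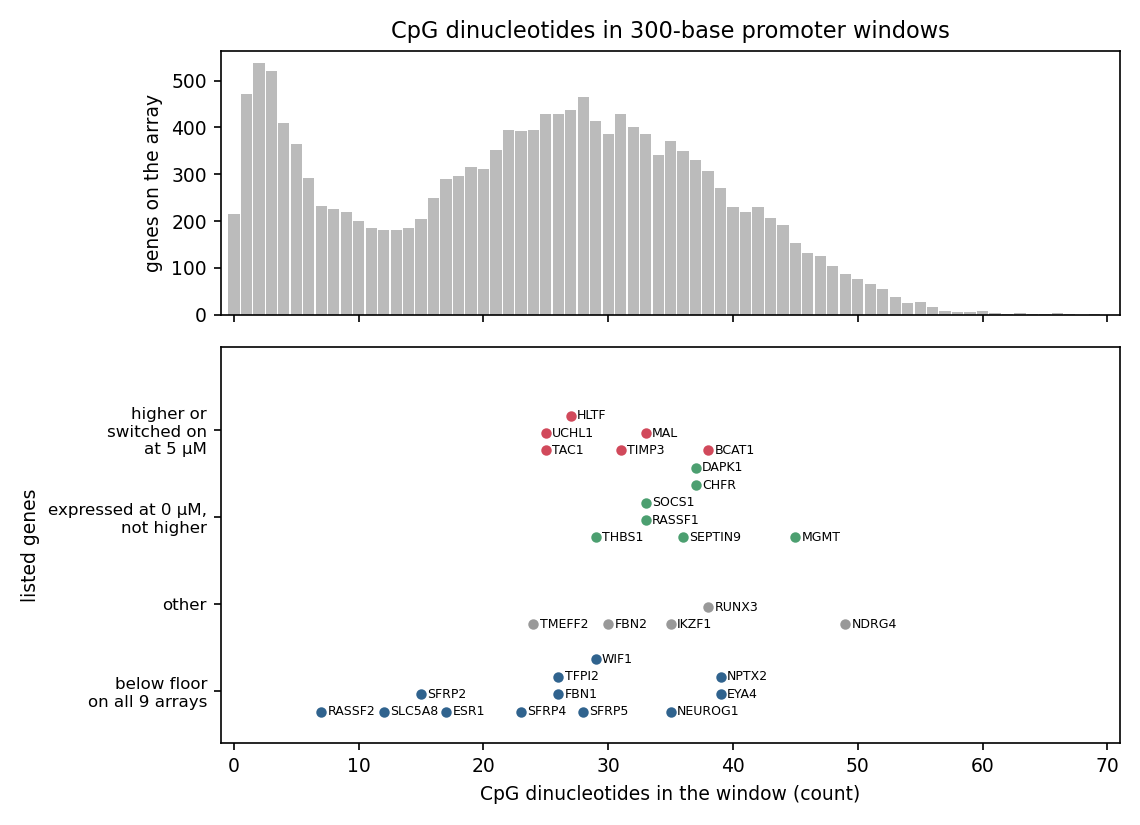
CpG dinucleotides per 300-base promoter window, for genes on the array (upper panel, bars count genes) and for the 30 listed genes with a window (lower panel, 1 point per gene, grouped by expression in HT-29 cells). Listed genes ran from 7 sites in RASSF2 to 49 in NDRG4, and the 6 raised genes lay between 25 and 38.

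Signals are given as deposited, on the log2 scale, and 1 probe set stood for each gene (that with the highest mean). The median of each array served as a floor, which lay between 5.07 and 5.20 at 0 µM, 5.41 and 5.42 at 5 µM, and 5.25 and 5.52 at 10 µM. A signal below it has no reliable level, does not show that the gene is silent, and has no order among other low signals. By this floor, 24 of 43 listed genes (55.8%) were low on all 9 arrays, against 31.6% of all genes on the array. Only 8 listed genes (18.6%) reached the floor on all 3 arrays at 0 µM, against 55% of all genes. A further 7 genes were low on every 0 µM array and above the floor on 1 or more treated arrays, and the other 4 were above it on some 0 µM arrays. With every probe set of a gene considered, 23 genes were low throughout; the exception was ESR1, whose probe set 211233_x_at passed the floor on 2 arrays at 0 µM.

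**Figure D2:**
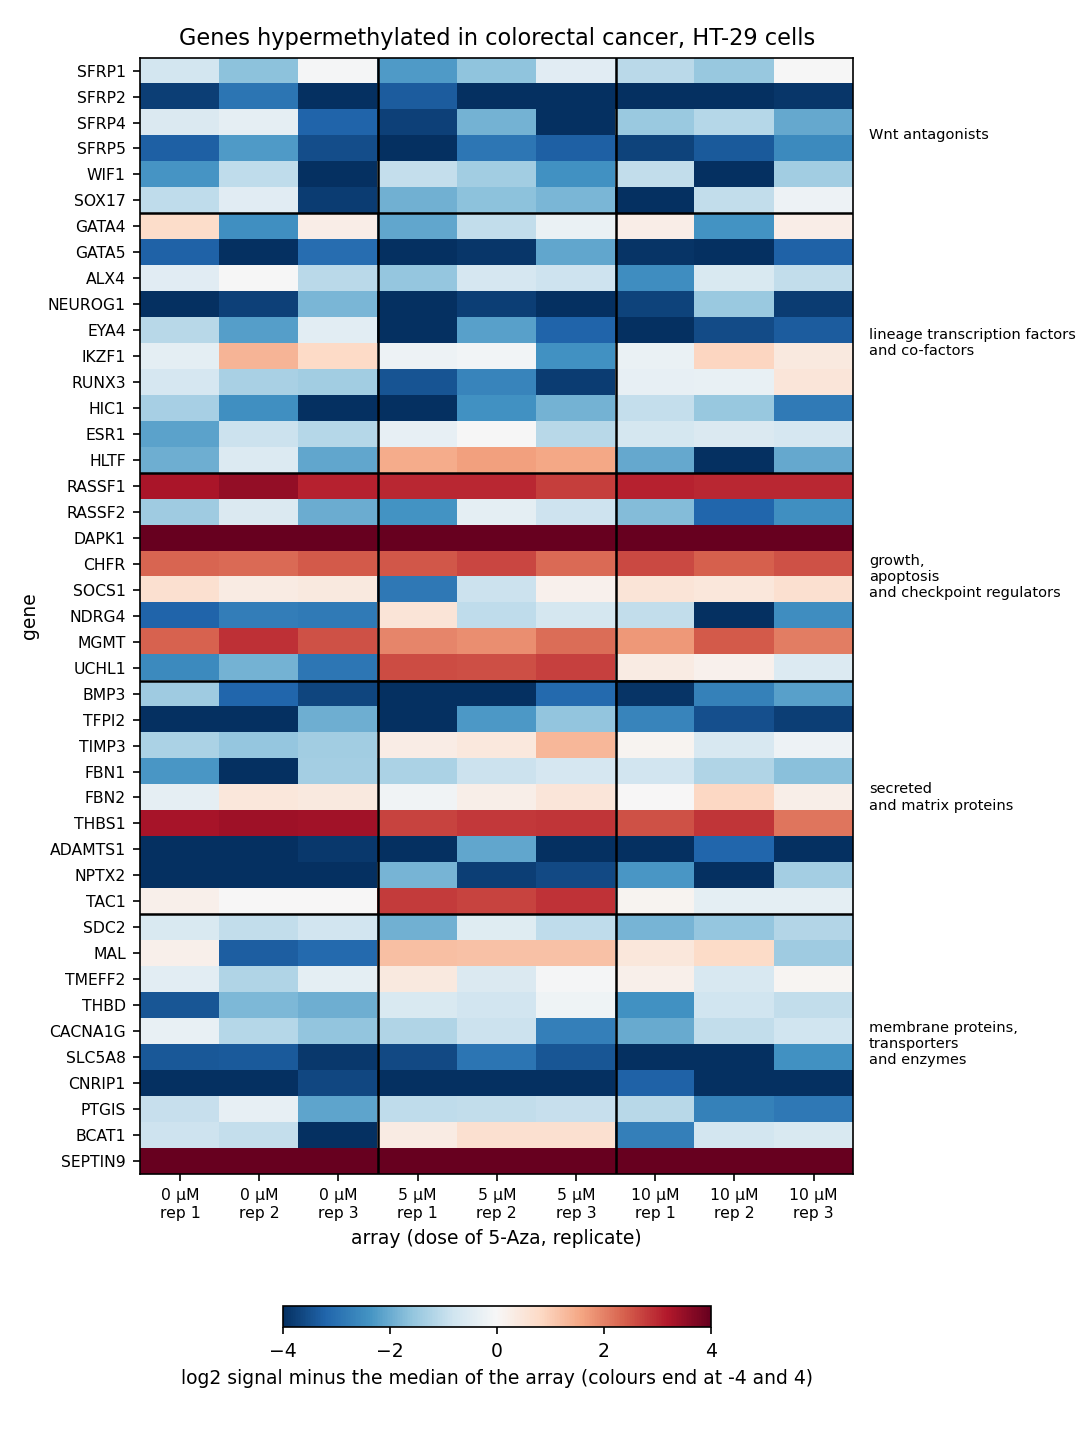
Log2 signal minus the array median for 43 listed genes (rows, grouped by role) on 9 arrays (columns, 3 per dose of 5-Aza), with red above the median and blue below it. DAPK1, SEPTIN9, RASSF1 and THBS1 were above the median on every array, the 6 Wnt antagonists were below it throughout, and HLTF, TAC1 and UCHL1 were highest at 5 µM.

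The test compared doses in limma across 11758 genes that reached the floor on all 3 arrays of at least 1 dose, and the calls rest on an adjusted p (Benjamini-Hochberg) no higher than 0.05 together with a difference over 2-fold. Of the listed genes 14 entered it, 8 through the 0 µM arrays and 6 only through a treated group. At 5 µM against 0 µM, 5 of 14 were called higher (HLTF, MAL, TAC1, TIMP3 and UCHL1) and 0 lower, beside 8.6% of all genes tested called higher and 1.32% lower. Of these 5, HLTF, MAL, TIMP3 and UCHL1 had entered only through a treated group, and so had been selected in part for a higher signal there. Among the 8 genes that reached the floor at 0 µM, 1 (TAC1) was called higher at 5 µM, beside 4.51% of all 10879 such genes, and 0 at 10 µM against 0 µM (1 at an unadjusted limma p under 0.05), beside 3.12%. In 10 µM against 5 µM cells, 0 were called higher and 3 lower (HLTF, TAC1 and UCHL1), beside 0.264% and 2.08% of all genes. HLTF and UCHL1 had entered only through the 5 µM arrays, and so had been selected in part for a higher signal there. At 10 µM against 0 µM, 2 were called higher (TIMP3 and UCHL1) and 0 lower, beside 6.09% and 1.5% of all genes. At an unadjusted p under 0.05 in the same limma fit, 8 of the 14 were higher and 1 lower at 5 µM against 0 µM, 2 higher and 5 lower at 10 µM against 5 µM, and 4 higher and 1 lower at 10 µM against 0 µM. Over all genes tested, 26% were higher and 18.6% lower at that unadjusted p at 5 µM against 0 µM, 15.3% and 17.2% at 10 µM against 5 µM, and 26.4% and 18.8% at 10 µM against 0 µM. The median difference of the 14 was 0.47 at 5 µM against 0 µM (0.04 over all genes tested), -0.30 at 10 µM against 5 µM (-0.01) and 0.29 at 10 µM against 0 µM (0.05). The counts out of 14 and the medians include the 6 genes that entered only through a treated group, so this selection bears on each of them. The 3 comparisons share arrays and are not independent.

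A second count did not need the test. Of 31 listed genes that were below the floor on every 0 µM array, 4 (BCAT1, HLTF, TIMP3 and UCHL1, 12.9%) reached it on all 3 arrays at 5 µM, beside 4.51% of the 7317 genes that were likewise low at 0 µM. At 10 µM the count was 0 of 31, beside 1.89% of all such genes. No other listed gene had a probe set that came on at 5 µM in this way. In cell cultures, a higher signal cannot be split into more cells expressing a gene and more RNA per cell.

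UCHL1, a deubiquitinase of neurons and endocrine cells, was below the floor at 0 µM and clear of it at 5 µM. Its signals were 2.65, 3.19 and 2.29 at 0 µM, 8.01, 7.99 and 8.15 at 5 µM, and 5.82, 5.42 and 4.96 at 10 µM. The 5 µM signals lay above those of both other doses, and 2 of the 10 µM arrays were above their floor. UCHL1 was at least 7.49-fold higher at 5 µM than at 0 µM (log2 difference 5.34 ± 0.26 SE, adjusted p = 5.1e-06), since all 0 µM signals were below the floor. At 10 µM it was 2.65 ± 0.26 lower than at 5 µM (log2 difference -2.65, adjusted p = 0.00145). It was called higher at 10 µM than at 0 µM (2.69 ± 0.26, adjusted p = 0.000288). No least fold is given for that difference, since not every 10 µM signal was above its floor. The call at 10 µM against 0 µM was lost with low signals raised to the floor. The other probe set of UCHL1, 1555834_at, did not follow this course, with 5.20, 5.35 and 5.08 at 5 µM, all below the floor, and 5.63, 2.10 and 4.57 at 0 µM.

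HLTF, a helicase-like factor of the SWI/SNF family with a ubiquitin ligase domain that acts in replication fork repair, was seen at 5 µM only. Its single probe set gave 3.25, 4.51 and 3.10 at 0 µM, 6.90, 7.04 and 6.96 at 5 µM, and 3.43, 1.00 and 3.46 at 10 µM. All 5 µM arrays stood clear of both other doses, whose signals were below the floor. HLTF was at least 3.54-fold higher at 5 µM than at 0 µM (log2 difference 3.35 ± 0.63 SE, adjusted p = 0.00449) and lower by at least 2.92-fold at 10 µM, again set against 5 µM (-4.34 ± 0.63, adjusted p = 0.00544).

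TAC1, which encodes the precursor of substance P and neurokinin A, also peaked at 5 µM. Its signals were 5.40, 5.08 and 5.18 at 0 µM, 8.20, 8.11 and 8.30 at 5 µM, and 5.61, 4.85 and 5.11 at 10 µM. The 0 µM signals were at the floor, and those at 10 µM overlapped with them, with 1 of the 3 above its floor. TAC1 was 7.92-fold higher at 5 µM than at 0 µM (log2 difference 2.99 ± 0.18 SE, adjusted p = 1.58e-05) and lower by at least 6.71-fold at 10 µM when set against 5 µM, with the low 10 µM signals raised to their floors (-3.02 ± 0.18, adjusted p = 0.000214). Between 10 µM and 0 µM the difference was -0.03, with a 95% interval of -0.45 to 0.39.

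**Figure D3:**
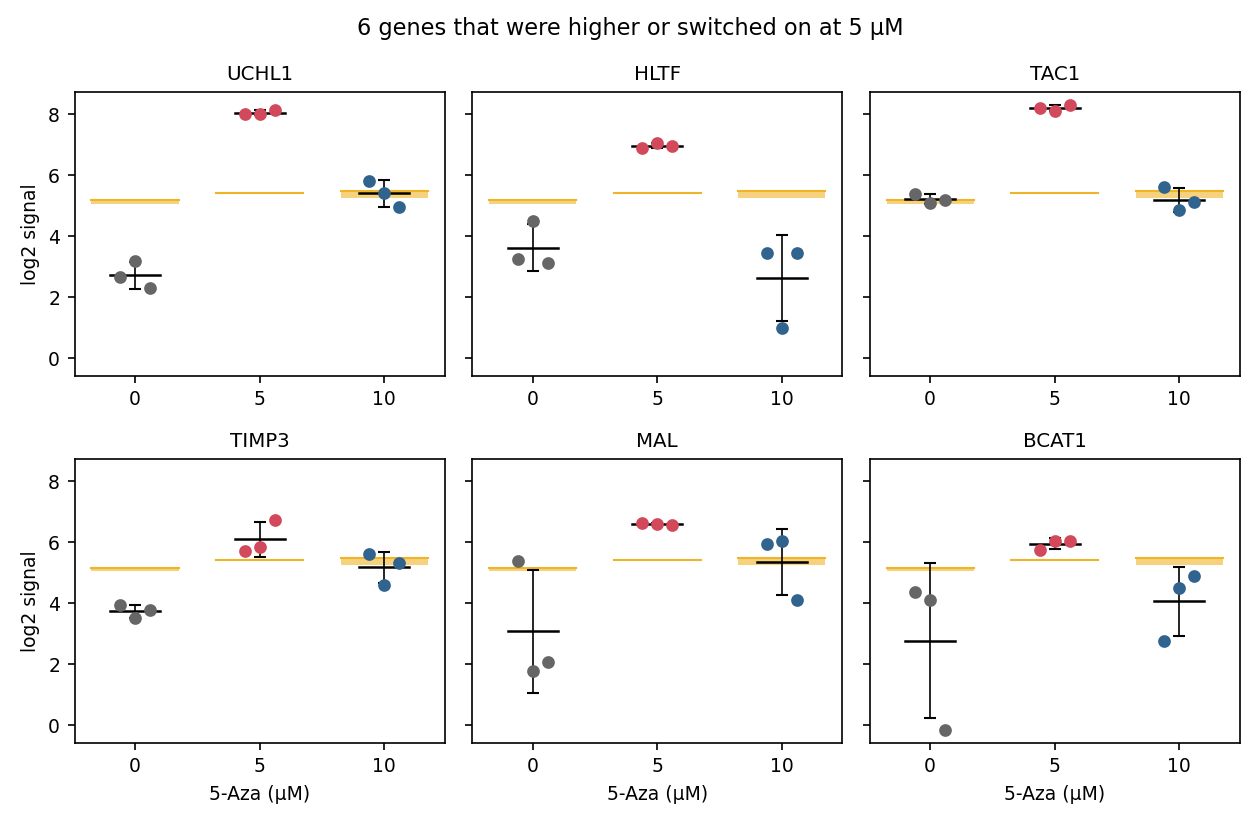
Log2 signals of 6 listed genes on each array (points), with the mean and SD of 3 arrays (black) at 0, 5 and 10 µM 5-Aza. The yellow band spans the floors of the arrays of that dose, and all 5 µM points lie above it while those of UCHL1, HLTF, TIMP3 and BCAT1 at 0 µM lie below it.

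TIMP3, a tissue inhibitor of metalloproteinases bound to the extracellular matrix, was called higher at both doses against 0 µM, less securely at 10 µM. Its signals were 3.93, 3.51 and 3.79 at 0 µM, 5.70, 5.84 and 6.74 at 5 µM, and 5.61, 4.60 and 5.31 at 10 µM. Every 5 µM array was above its floor and above every 0 µM array. At 10 µM 1 array reached its floor, and the signals below it have no order against those at 0 µM. TIMP3 was at least 1.93-fold higher at 5 µM against 0 µM (log2 difference 2.35 ± 0.32 SE, adjusted p = 0.000874). At 10 µM against 0 µM the difference was 1.43 ± 0.32 (adjusted p = 0.0108). No least fold is given for it, since the 10 µM mean of 5.17 lay below the floors of those arrays. The difference of -0.92 at 10 µM against 5 µM was not called (adjusted p = 0.0836). Both calls against 0 µM were lost with low signals raised to the floor, at 0.95 for 5 µM (adjusted p = 0.0113, under 2-fold) and 0.31 for 10 µM (adjusted p = 0.321). The call at 10 µM was also lost by the methods' t-test (adjusted p = 0.0672 after Benjamini-Hochberg).

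Probe sets 201148_s_at, 201149_s_at and 201150_s_at of TIMP3 were above the floor on each 5 µM array and below it on each 0 µM array. Probe set 201150_s_at gave 1.68, 0.68 and 1.00 at 0 µM, 6.80, 6.99 and 7.03 at 5 µM, and 3.57, 2.00 and 4.76 at 10 µM. When probe sets were fitted in place of genes, a choice made after seeing the data, it was at least 3.46-fold higher at 5 µM against 0 µM (adjusted p = 0.000281) and at least 2.86-fold lower at 10 µM against 5 µM (adjusted p = 0.0112), since the signals of both other doses were below the floor. Probe set 201148_s_at, with 5.94, 6.36 and 6.65 at 5 µM and 1.63, 2.74 and 2.81 at 0 µM, was higher by at least 2.25-fold (adjusted p = 0.00663). Probe set 201147_s_at gave 5.98, 5.34 and 6.01 at 5 µM and 1.54, 2.00 and 0.77 at 0 µM, and was above the floor on 2 of the 5 µM arrays.

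MAL, a membrane raft proteolipid of T cells and polarised epithelia, was uneven at 0 µM and even at 5 µM. Its signals were 5.40, 1.77 and 2.07 at 0 µM, 6.62, 6.58 and 6.58 at 5 µM, and 5.93, 6.03 and 4.10 at 10 µM. The 5 µM arrays were above all others, and 1 of the 0 µM arrays was above its floor. The difference was 3.52 ± 0.90 (SE, adjusted p = 0.0166) at 5 µM against 0 µM, a size that rests on the other 2 vehicle arrays, whose signals have no reliable level, and was 1.38 (adjusted p = 7.98e-05) with low signals raised to the floor. It was 2.28 ± 0.90 (adjusted p = 0.081) at 10 µM against 0 µM. The call at 5 µM was lost on leaving out 0 µM replicate 2 (adjusted p = 0.0579) or 0 µM replicate 3 (adjusted p = 0.0554), and on leaving out 5 µM replicate 1 (adjusted p = 0.0528). It was also lost with no filter on low signals (adjusted p = 0.0564) and by the methods' t-test (adjusted p = 0.0896 after Benjamini-Hochberg).

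BCAT1, the cytosolic branched-chain aminotransferase, came on at 5 µM without passing the test. Its signals were 4.37, 4.11 and -0.15 at 0 µM, 5.74, 6.04 and 6.05 at 5 µM, and 2.77, 4.51 and 4.89 at 10 µM. The 5 µM arrays alone were above the floor, which makes the gene at least 1.74-fold higher at 5 µM than at 0 µM (log2 difference 3.17 ± 1.09 SE, adjusted p = 0.0527). Probe set 226517_at had a like course, with 5.29, 6.08 and 5.86 at 5 µM and -0.32, 2.23 and 0.38 at 0 µM, while 214390_s_at and 214452_at were below the floor on all arrays.

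**Figure D4:**
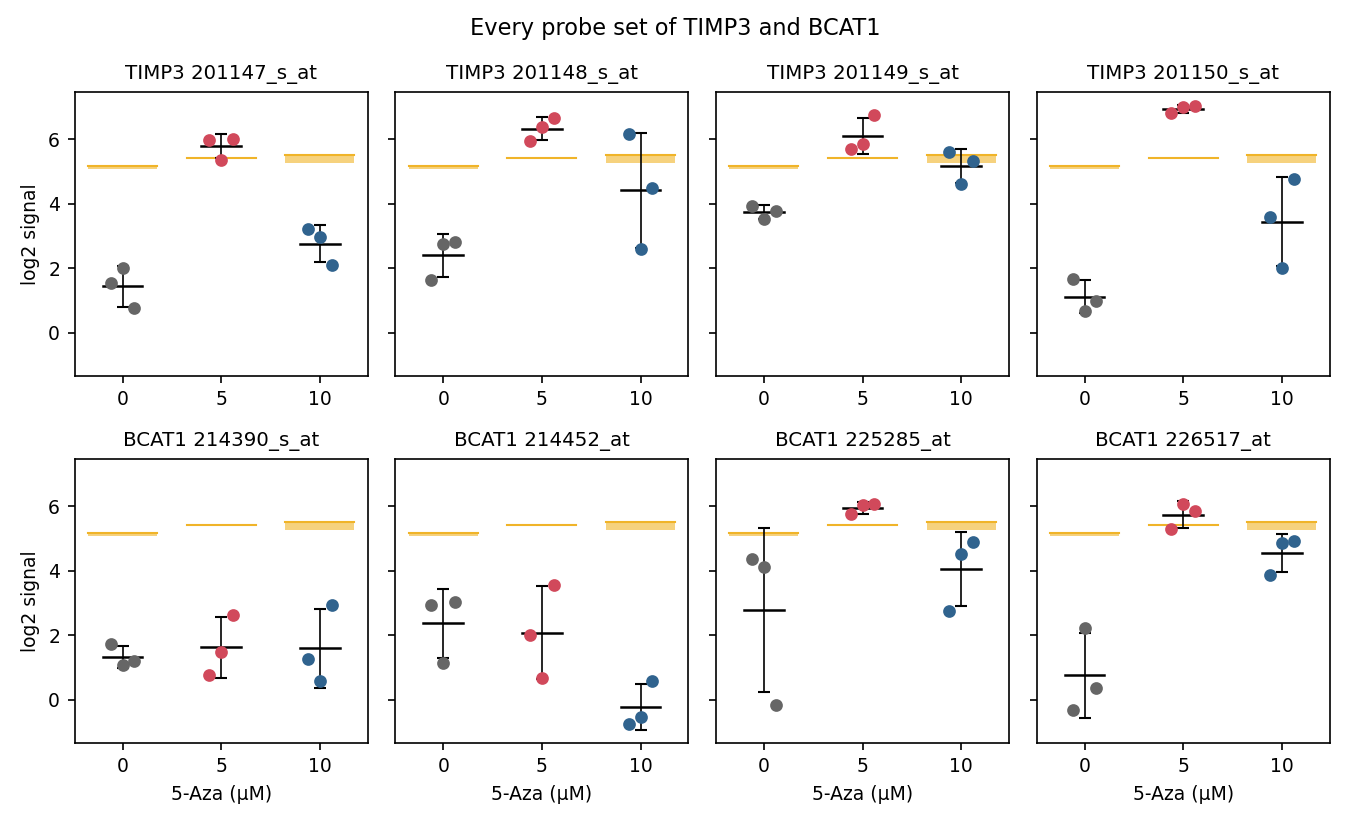
Log2 signals of the 4 probe sets of TIMP3 (upper row) and the 4 of BCAT1 (lower row) at 0, 5 and 10 µM 5-Aza, 1 point per array, with the mean and SD of 3 arrays in black and the floors in yellow. All probe sets of TIMP3 were highest at 5 µM by their means, whereas BCAT1 rose above the floor at 5 µM by 225285_at and 226517_at only.

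NDRG4, TMEFF2 and RUNX3 were low at 0 µM and passed the floor on some treated arrays, so they were not tested. NDRG4, a member of the N-myc downstream-regulated family used in stool tests, gave 2.00, 2.29 and 2.35 at 0 µM, 5.91, 4.39 and 4.70 at 5 µM, and 4.51, 0.93 and 3.02 at 10 µM. Of these, 1 array at 5 µM was above its floor. TMEFF2, a transmembrane protein with follistatin domains, was above the floor on 1 array at 5 µM and 2 at 10 µM, with means of 5.33 and 5.30. RUNX3, a runt-domain factor of the TGF-beta pathway, was above it on 1 array at 10 µM.

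The Wnt antagonists stayed low. SFRP1, SFRP2, SFRP4 and SFRP5 bind secreted Wnt ligands, WIF1 does so through its own domain, and SOX17 is a factor that restrains beta-catenin. None of the 6 reached the floor on any array. SFRP2 gave 1.43, 2.14 and 0.93 at 0 µM, 2.07, 0.93 and 1.1 at 5 µM, and 1.49, 0.68 and 1.63 at 10 µM, and its doses overlapped. WIF1 gave 2.85, 4.06 and 0.77 at 0 µM, 4.47, 4.02 and 3.00 at 5 µM, and 4.50, 1.00 and 4.11 at 10 µM. Of the 6, SFRP1 came nearest to the floor, at 5.49 on a 10 µM array and 5.11 on a 0 µM array.

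Other genes that act against Wnt signalling, from a separate list of 20, behaved otherwise in part. Of these 9 were tested. At 5 µM against 0 µM 3 were called higher and 0 lower, beside 8.6% and 1.32% of all genes tested. The same 3 were called higher and 0 lower at 10 µM against 0 µM, beside 6.09% and 1.5%. FRZB of these had entered only through the treated groups, and so had been selected in part for a higher signal there. Lower at 5 µM against 0 µM, by the adjusted p but not the fold, were RNF43 (-0.70 ± 0.11 SE, adjusted p = 0.00187) and ZNRF3 (-0.55 ± 0.09 SE, adjusted p = 0.00212). In that limma fit 0 of the 9 were lower at an unadjusted p under 0.05 at 10 µM against 0 µM. DKK1, which binds the LRP co-receptors, was higher by 2.62 ± 0.18 (SE, adjusted p = 2.26e-05) at 5 µM and by 1.89 ± 0.18 (adjusted p = 0.000274) at 10 µM. KREMEN1, the receptor of DKK1, was higher by 1.85 ± 0.11 (adjusted p = 1.58e-05) at 5 µM and by 1.33 ± 0.11 (adjusted p = 0.000192) at 10 µM. FRZB, a secreted relative of the SFRP genes, was below the floor at 0 µM and at least 2.53-fold higher at 5 µM (adjusted p = 6.84e-05) and 1.85-fold higher at 10 µM (adjusted p = 0.000539). AXIN2, a feedback inhibitor and target of the pathway, differed by -0.0047 ± 0.15 SE at 5 µM against 0 µM (adjusted p = 0.985).

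Among the 10 lineage transcription factors and co-factors HLTF alone was tested. GATA5, ALX4, NEUROG1, EYA4, HIC1 and ESR1 were low on all 9 arrays by their representative probe sets. Most of these act in gut, limb, nerve or hormone-responsive tissues or as a p53-induced repressor. GATA4, a partner of GATA5 in endoderm, gave 5.93, 2.61 and 5.43 at 0 µM, 3.32, 4.42 and 5.14 at 5 µM, and 5.76, 2.87 and 5.78 at 10 µM. IKZF1, the lymphoid factor Ikaros, was above the floor on 2 arrays at 0 µM, 0 at 5 µM and 2 at 10 µM. For both genes the doses overlapped.

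Of the 8 growth, apoptosis and checkpoint regulators, 5 were expressed at 0 µM. RASSF1, a Ras-association scaffold of the Hippo pathway, averaged 8.43 ± 0.16 at 0 µM, 8.35 ± 0.14 at 5 µM and 8.45 ± 0.17 at 10 µM (SD, n = 3). Its difference at 5 µM against 0 µM was -0.08, with a 95% interval of -0.38 to 0.21, so a change of more than 2-fold lay outside it. MGMT, which removes alkyl groups from guanine in DNA, averaged 7.75 ± 0.23, 7.43 ± 0.21 and 7.49 ± 0.24 at 0, 5 and 10 µM (SD, n = 3), and its interval at 5 µM against 0 µM was -0.72 to 0.07. CHFR, a mitotic checkpoint ubiquitin ligase, had a difference of 0.38 at 5 µM (interval 0.02 to 0.75, adjusted p = 0.0992) and 0.45 at 10 µM (interval 0.08 to 0.81, adjusted p = 0.0623), both against 0 µM.

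DAPK1, a calcium/calmodulin kinase of cell death, passed the adjusted p but not the fold, at 1.47-fold higher at 5 µM than at 0 µM (log2 difference 0.56 ± 0.14 SE, adjusted p = 0.0171). SOCS1, an inhibitor of JAK kinases, gave 5.83, 5.41 and 5.57 at 0 µM, 2.56, 4.56 and 5.60 at 5 µM, and 6.0, 5.71 and 6.16 at 10 µM. It was not called (-1.36 ± 0.62, adjusted p = 0.123, at 5 µM against 0 µM), and its probe sets disagreed, since 210001_s_at averaged 5.69 at 5 µM and 3.58 at 0 µM. RASSF2, a relative of RASSF1, was low on all arrays.

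Of the 9 secreted and matrix proteins, THBS1 and TAC1 were expressed at 0 µM. THBS1, an inhibitor of angiogenesis, averaged 8.49 ± 0.05 at 0 µM, 8.20 ± 0.10 at 5 µM and 7.94 ± 0.24 at 10 µM (SD, n = 3). The difference of -0.56 ± 0.13 SE at 10 µM against 0 µM had an adjusted p of 0.0122 but was under the fold threshold, with an interval of -0.85 to -0.26. Its probe set 201109_s_at passed both when probe sets were fitted (-1.01 ± 0.21, adjusted p = 0.00974). FBN2, a microfibril protein, differed by 0.29 at 5 µM and 0.46 at 10 µM, both against 0 µM, with intervals of -0.26 to 0.84 and -0.09 to 1.01, and neither was called.

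BMP3, TFPI2, FBN1, ADAMTS1 and NPTX2 of this group were low on all arrays. NPTX2, a neuronal pentraxin, gave -0.15, -0.74 and -1.0 at 0 µM, 3.55, 1.63 and 1.81 at 5 µM, and 3.15, 0.85 and 4.15 at 10 µM. All 9 signals were below the floor, so no fold or order is given. FBN1, the main fibrillin of elastic tissue, was likewise below the floor at 4.13, 4.55 and 4.76 on the 5 µM arrays and 2.89, 0.49 and 3.82 on the 0 µM arrays.

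SEPTIN9, a cytoskeletal GTPase whose methylated DNA is the target of a blood test, was expressed at every dose. It averaged 11.82 ± 0.04 at 0 µM, 11.48 ± 0.06 at 5 µM and 11.80 ± 0.16 at 10 µM (SD, n = 3). At 5 µM against 0 µM it differed by -0.34 ± 0.10 SE (adjusted p = 0.0337), under the fold threshold. When probe sets were fitted in limma, this probe set (41220_at) had an adjusted p of 0.0517. There 1559025_at went the other way (0.68 ± 0.28, adjusted p = 0.1045), while 207425_s_at (-0.33) and 208657_s_at (-0.37) were lower, and none was called. SDC2, THBD, CACNA1G, SLC5A8, CNRIP1 and PTGIS, which are a syndecan, thrombomodulin, a calcium channel, a butyrate transporter, a partner of the cannabinoid receptor and prostacyclin synthase, were low on all arrays. THBD gave 4.80, 4.65 and 5.23 at 5 µM, and 1.77, 3.28 and 3.22 at 0 µM, all below the floor.

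**Figure D5:**
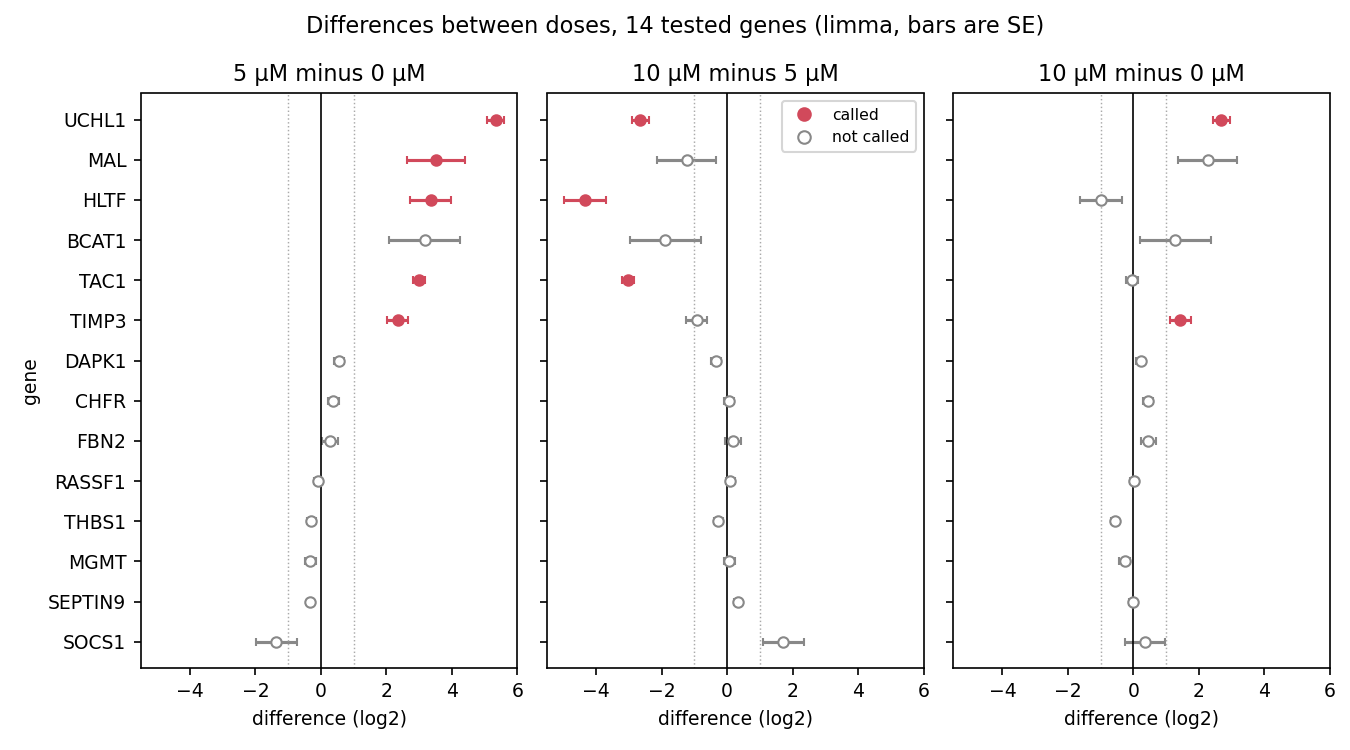
Differences in log2 signal between doses for the 14 listed genes tested (points, with SE bars), in 3 panels for 5 µM minus 0 µM, 10 µM minus 5 µM and 10 µM minus 0 µM; filled red points were called and dotted lines mark a 2-fold difference. UCHL1 ran at 5.34, -2.65 and 2.69 in the 3 panels, and RASSF1 stayed within 0.10 of 0. Differences against a dose whose signals were below the floor (UCHL1, HLTF, TIMP3 and BCAT1, and MAL in part) have no reliable size.

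A list of 32 other genes known to be methylated in colorectal cancer, of which 29 were on the array, was mostly low as well, with 15 below the floor on all arrays. Of 7 tested, 2 were called higher and 1 lower at 5 µM against 0 µM, beside 8.6% and 1.32% of all genes tested. In the other comparisons 0 were called. At an unadjusted p under 0.05 in limma, 2 were higher at 10 µM against 5 µM and 4 at 10 µM against 0 µM. The 2 called higher, AKAP12 and SYNE1, had entered only through a treated group, and so had been selected in part for a higher signal there. SPART, called lower, had entered only through the 0 µM arrays. AKAP12, a scaffold of protein kinase A, averaged 8.87 ± 0.61 at 5 µM and 4.61 ± 2.37 at 0 µM (SD, n = 3), a difference of 4.26 ± 0.97 SE (adjusted p = 0.0103), with 2 of the 3 arrays at 0 µM above the floor. SYNE1, a nuclear envelope spectrin, was at least 2.79-fold higher at 5 µM (adjusted p = 0.0123), and SPART, the gene of spartin, was at least 1.05-fold lower (adjusted p = 0.00529).

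Relatives of the listed genes by family, or by pathway for PTGS1 and PTGS2, were not chosen for methylation. They were mostly expressed, with 40 of 57 on the array reaching the floor at 0 µM. Of 42 tested, 6 were called higher and 3 lower at 5 µM against 0 µM, beside 8.6% and 1.32% of all genes tested. At 10 µM against 5 µM 0 were called (9 higher and 7 lower at an unadjusted limma p under 0.05), beside 0.264% higher and 2.08% lower. At 10 µM against 0 µM 4 were called higher and 2 lower, beside 6.09% and 1.5%. TIMP1, the soluble relative of TIMP3, was higher by 1.55 ± 0.22 (SE, adjusted p = 0.0011) at 5 µM. PTGS1, a cyclooxygenase, was higher by 2.41 at 5 µM (adjusted p = 2.03e-05) and by 2.10 at 10 µM (adjusted p = 0.000115), both against 0 µM. TFPI, the relative of TFPI2 that inhibits tissue factor, fell by 1.44 at 5 µM (adjusted p = 4.19e-05) and by 1.26 at 10 µM (adjusted p = 0.000203).

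The signal of DNMT1 averaged 8.61 ± 0.10 at 0 µM, 8.88 ± 0.09 at 5 µM and 9.27 ± 0.09 at 10 µM (SD, n = 3), and at 10 µM against 0 µM it was 0.67 ± 0.10 SE higher (adjusted p = 0.00199), under the fold threshold. Of 11 colonic epithelial markers, 8 were expressed at 0 µM, and CDX1, CDX2 and PHGR1 were below the floor throughout. The epithelial markers summed to 76640 to 79460 at 0 µM, 55080 to 61860 at 5 µM and 52880 to 58560 at 10 µM in linear signal, so that both treated doses lay below 0 µM with no overlap. Among them CEACAM5 was called higher at 5 µM against 0 µM (1.67 ± 0.13 SE, adjusted p = 3.99e-05) and KRT8 lower at 10 µM against 0 µM (-1.05 ± 0.14 SE, adjusted p = 0.00102). The 8 fibroblast markers summed to 174.1 to 294.8 at 0 µM, 744.8 to 781 at 5 µM and 424.3 to 594 at 10 µM in linear signal. Of the 8, COL1A1 alone was tested, and it was called higher at both doses against 0 µM. COL3A1, PDGFRB, PDGFRA, FAP and THY1 were below the floor on all arrays. The 6 neuronal markers summed to 1201 to 1569 at 0 µM, 1828 to 1948 at 5 µM and 1289 to 1683 at 10 µM, with SYT1 and MAP2 called higher at 5 µM against 0 µM and RBFOX3 and STMN2 below the floor throughout. The 6 endothelial markers summed to 292.2 to 370.7 at 0 µM, 431.7 to 522 at 5 µM and 244.1 to 447.2 at 10 µM, with TEK called higher at 5 µM against 0 µM (1.41 ± 0.29 SE, adjusted p = 0.00598) and VWF, CDH5 and KDR low on all arrays. The 5 blood cell markers summed to 12830 to 13660 at 0 µM, 8933 to 10140 at 5 µM and 10670 to 11800 at 10 µM. ITGAM of these was at least 2.70-fold higher at 5 µM against 0 µM (adjusted p = 0.0135), and PTPRC was low on all arrays. Signals below the floor, which have no reliable level, entered all of these sums. The part of these shifts in the differences of the listed genes was not tested.

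The beta-actin control, whose 3′ minus 5′ signal widens as RNA shortens, moved with dose, at 1.91 to 2.29 for 0 µM, 2.49 to 2.69 for 5 µM and 2.84 to 3.17 for 10 µM (log2), with no overlap. With this value in the fit 3 listed genes were called at 5 µM against 0 µM (MAL, TAC1 and UCHL1), and HLTF (3.22, adjusted p = 0.202) and TIMP3 (2.12, adjusted p = 0.105) were not. In the step between the treated doses TAC1 alone was called. Under this limma fit 0 genes of any kind were called at 10 µM against 0 µM, where 998 genes, MAL and UCHL1 among them, had an unadjusted p under 0.05. Because the actin value differed between doses without overlap, its part and that of dose cannot be told apart in these fits. A lost call is therefore not a measure of RNA shortening, whose part was not tested. The share of calls that were higher also moved with scaling. With array medians made equal, the median of all genes moved to -0.22 at 5 µM against 0 µM and -0.23 at 10 µM against 0 µM, and 721 genes were called higher and 443 lower at 5 µM (1011 and 155 as deposited). For 10 µM against 0 µM these were 459 and 475 (716 and 176 as deposited), and 514 and 232 after quantile normalization.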

How the data were processed

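The deposited values were log2 signals per probe set from 9 arrays. The submitters' processing notes name RMA and affy 1.14.2, but the deposited log2 values are logs of multiples of 0.1 whose 2% trimmed mean is 250.0 on every array, as scaled MAS5-type signals have; which steps were run is otherwise not given in the sources used here. They were not normalized again. Probe sets with 1 gene (41091 of 54675) were named by the platform table. Doses were compared with limma 3.58.1 (R 4.3.3; lmFit and eBayes, 1 mean per dose) over 11758 genes, and p-values were adjusted over all of them. The script was tested on simulated data. The labels call the 3 arrays of a dose biological replicates, and the study's methods describe triplicate cultures. Their number limits the precision. Promoter windows were RefSeq sequences (GRCh38.p14) matched by symbol. The listed genes and other lists were chosen with earlier results of these data known. Every listed gene was accounted for, with array values for those called or switched on. Alternatives covered the floor, choice of probe set, scaling, test, covariate, replicate block and leaving out arrays.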

Additional observations from a re-analysis of the deposited data

How the results depend on the processing

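Of 963 values of the 14 tested genes under the alternatives, 894 kept their direction and side of the threshold, 17 lost the call, 17 gained it and 35 changed sign or came to 0, all of these for differences that had not been called. With the actin 3′ to 5′ difference in the fit these were FBN2 (-0.45) and RASSF1 (0.15) at 5 µM against 0 µM, FBN2 (-0.41), MAL (1.24) and MGMT (-0.19) at 10 µM against 5 µM, and DAPK1 (-0.23), FBN2 (-0.86), SOCS1 (-1.48) and TAC1 (0.51) at 10 µM against 0 µM. Without 10 µM replicates 2 and 3, FBN2 (-0.094) and MGMT (-0.205) turned at 10 µM against 5 µM, and BCAT1 (-0.009) and TAC1 (0.39) at 10 µM against 0 µM. The others were at 10 µM against 0 µM, namely RASSF1 (-0.067) and SEPTIN9 (0.15) after quantile normalization, DAPK1 (-0.053) and RASSF1 (-0.26) with equal medians, HLTF (0.275) and TAC1 (0.24) with low signals raised to the floor, and SEPTIN9 with the mean of probe sets (0.10) or array weights (0.053). The HLTF value of 0.275 is the difference between the floors of both doses, since all its signals there were below the floor. With 1 array left out, values ran down to or across 0 for FBN2 (0 to 0.33), MGMT (-0.039 to 0.197) and CHFR (-0.037 to 0.215) at 10 µM against 5 µM, and for TAC1 (-0.24 to 0.14), SEPTIN9 (-0.065 to 0.073), BCAT1 (-0.18 to 2.08) and RASSF1 (-0.074 to 0.11) at 10 µM against 0 µM. Listed genes called were 5 at 5 µM against vehicle, 3 at 10 µM against 5 µM, and 2 at 10 µM against vehicle, in which order counts follow. Without probe sets that can bind several transcripts (_x_at, _s_at) these were 1, 1 and 0, and 2 in place of 4 genes came on at 5 µM. TAC1, MAL and TIMP3 have only _s_at probe sets and so were not in that fit. UCHL1 was left with 1555834_at, which reached the floor on all 3 arrays of no dose. With the actin 3′ to 5′ difference added to the fit the counts called were 3, 1 and 0. At 10 µM against 5 µM the methods' t-test gave 2 and array weights 5. At 10 µM against 0 µM the count was 1 with the floor at the 60th percentile, 1 with the mean of a gene's probe sets, 0 with low signals raised to the floor, 1 with the methods' t-test, 3 with a trended and robust prior, 3 with no fold threshold and, added after seeing the data, 3 with probe sets in place of genes.

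Leaving out each array in turn gave 4 to 6, 3 to 4 and 2 to 3 listed genes called; without 0 µM replicate 1 MAL was added at 10 µM against 0 µM, and without 10 µM replicate 2 TMEFF2 was. Genes that came on at 10 µM numbered 0 to 1 (TMEFF2 without 10 µM replicate 2, UCHL1 without replicate 3). Without 10 µM replicates 2 and 3 the calls were the same 5, 3 and 2 genes, where the lone 10 µM array is assumed to vary like the arrays of the other doses. Replicate numbers did not pair the cultures (correlations of same-numbered deviations -0.089 to 0.179), and with the replicate block 5, 3 and 2 listed genes were called, the same ones.

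Over all genes, at 10 µM against 5 µM (31 higher, 245 lower), the t-test gave 13 and 101, array weights 145 and 492, no fold threshold 815 and 1049, the actin covariate 0 and 12, and leaving out 1 array 12 to 96 higher; 138 were lower without 5 µM replicate 3, and 57 higher without 10 µM replicates 2 and 3. At 10 µM against 0 µM (716 and 176) the t-test gave 333 and 104, no fold threshold 2330 and 1565, array weights 321 lower and the actin covariate 0 and 0. At 5 µM against 0 µM (1011 and 155) no fold threshold gave 2380 and 1561 and the actin covariate 555 higher. The cause was not tested.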
